A study of Solanum lycopersicum with 8 samples.

Results

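The comparison described here sets anthers of heated A2AS tomato plants against anthers of heated wild type (WT) plants. It uses 2 of the 8 libraries of the series, 1 per genotype, chosen from the labels for tissue, genotype and treatment. A2AS is the study's name for a transgenic genotype in which HsfA2 is suppressed. The labels do not say how many lines or plants entered a library. Both genotypes are cv Moneymaker, and both were 8 weeks old after glasshouse growth with 16 h days at 24 °C and 8 h nights at 20 °C. Heat stress was 1 h at 39 °C in a growth chamber lit at 120 µmol m−2 s−1, with 1.5 h at 24 °C afterwards before sampling. Anthers of several developmental stages went into each library. The other libraries are the unheated anthers and the heated and unheated young leaves of both genotypes, and the labels do not say how unheated plants were handled. With 1 library in each group the spread between plants is unknown, so ratios within a pair carry no test.

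Plants answer heat through heat stress transcription factors (Hsfs), which bind promoters of genes for chaperones. In tomato HsfA1a is regarded as the factor that starts the response, while HsfA2 accumulates during it and acts together with HsfA1a on chaperone genes. The anther holds developing microspores and pollen inside the tapetum, a nutritive cell layer that degenerates as pollen matures. Pollen development is among the most heat-sensitive steps of tomato reproduction, and developing anthers are known to produce HsfA2 and chaperones.

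The assay, massive analysis of cDNA ends, reads the last 500 bp of polyadenylated RNA. The A2AS library held 14580174 reads and the WT library 13722325 reads, and 3 reads were worth 0.206 CPM in A2AS and 0.219 CPM in WT. CPM are tags per 1000000 tags of a library. Gene names below come from published tomato nomenclature and not from the deposited tables, which hold IDs only. Both libraries carried the markers of their labelled tissue. The 5 listed stamen identity genes, MADS-box regulators of floral organ fate, summed to 2441 CPM in A2AS and 2190 CPM in WT heated anthers, against 38.6 and 51.7 CPM in A2AS and WT heated leaf. None of these 5 genes was at 0 in either heated anther library.

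HsfA2 (Solyc08g062960) stood at 39.3 CPM in heated A2AS anthers and at 22.3 CPM in heated WT anthers. The A2AS level was 1.76-fold that of WT, with a 95% exact counting interval of 1.53 to 2.03 that covers counting error only. In heated leaf the order was the opposite, at 2.72 CPM in A2AS and 21.7 CPM in WT. In unheated anthers HsfA2 was low, at 1.08 CPM in A2AS and 1.93 CPM in WT. That ratio was 0.56, with an interval of 0.278 to 1.1 that held 1. The heated anther library labelled A2AS thus goes against its label on the gene that defines the genotype, and every direction below is that of the library labelled A2AS. The labels do not say whether reads were counted by strand. Reads of an antisense transcript and of HsfA2 therefore cannot be told apart.

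The other Hsf genes lay close to WT. Of 17 listed Hsf genes, HsfA2 included, 7 had such a mean, and none of the 7 differed 2-fold. The median log2 ratio of all 17 was 0.18, where the median of all genes was 0.08. HsfA3, a late factor of the Hsf cascade, was at 31.5 CPM in A2AS and 22.7 CPM in WT, a ratio of 1.38 (1.20 to 1.60). HsfB2a, a class B factor, was at 29.4 CPM in A2AS and 24.0 CPM in WT, a ratio of 1.22 (1.05 to 1.41). The intervals of the other named members all held 1. HsfA1a was at 24.3 CPM in A2AS and 22.7 CPM in WT, and HsfB1, a class B factor, at 42.3 and 39.5 CPM in the same order. HsfA7 was at 12 CPM in A2AS and 9.62 CPM in WT, and HsfA8 at 22.0 and 22.2 CPM in the same order.

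Across all genes the pair differed little in its bulk and strongly in a small tail. Ratios are log2 of (CPM + 1) over (CPM + 1), a scale on which low genes show less than their full ratio. Genes that averaged 10 CPM or more over the pair were compared, and this is the minimum named below. Of 9476 such genes 217 differed at least 2-fold (2.29%), with 87 higher (0.918%) and 130 lower (1.37%) in A2AS. The middle of the distribution was narrow: the 5th, 25th, 75th and 95th percentiles of the log2 ratio were −0.48, −0.06, 0.20 and 0.41. At 1.5-fold 203 genes were higher and 369 lower, whereas at 8-fold 7 were higher and 0 lower. The lower genes were thus more numerous and the widest ratios were on the higher side. The share differing 2-fold in either direction was 2.45% at pair means of 10 to 30 CPM, 1.79% at 30 to 100, 1.90% at 100 to 300, 5.68% at 300 to 1000 and 8.33% at 1000 CPM or more. The upper levels held few genes, with 15 differing of 264 at 300 to 1000 CPM and 4 differing of 48 at 1000 CPM or more, and the differences between levels were not tested. Relative to the all-gene median, scaling mattered for the split: it was 69 higher and 149 lower under median-ratio scaling, which brought the median to 0.01.

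**Figure D1:**
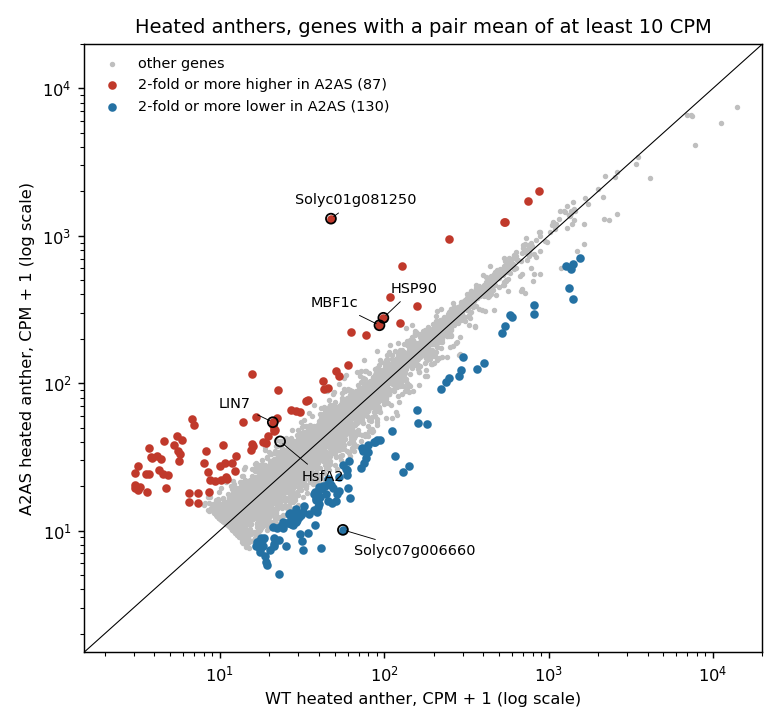
CPM + 1 in heated A2AS anthers (y axis, log scale) against heated WT anthers (x axis, log scale), 1 point per gene at the minimum of 10 CPM over the pair. The 87 red genes lie at least 2-fold above the diagonal of equal levels and the 130 blue genes at least 2-fold below it. HsfA2 lies above the diagonal at less than 2-fold, and the 31 genes at 4-fold or more above the diagonal have a median of 3.5 CPM in WT.

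Most chaperones and co-regulated genes of the heat stress response lay within 2-fold of WT in the heated anther library labelled A2AS, and 4 were past 2-fold. Of 32 listed small heat shock proteins, HSP70, HSP90 and HSP100 genes and MBF1c, 25 had a log2 ratio above 0, 4 were at least 2-fold higher and 0 were 2-fold lower, with a median of 0.24. Over all genes 6241 of 9476 had a log2 ratio above 0, with a median of 0.08. Of all genes 0.918% were 2-fold higher and 1.37% were 2-fold lower, less on the higher side than the 4 of 32. In heated leaf, which shares no library with this pair, 0 of the 32 were above 0 and 17 were at least 2-fold lower, with a median of −1.04. The leaf libraries differed in depth, with 6243965 reads in heated A2AS leaf and 13857252 in heated WT leaf. Their 100 most abundant genes held 38.4% and 26.3% of the listed tags in the same order. The all-gene median in heated leaf was −0.32, and 2255 of 8727 genes there were above 0. Of all genes there 9.95% differed 2-fold, 3.44% higher and 6.51% lower. Under median-ratio scaling 21 of the 32 and 4855 of the 9476 genes were above 0 in heated anthers. In heated leaf 2 of the 32 were above 0 under that scaling and 10 were 2-fold lower. Of all genes in heated leaf 780 then differed 2-fold, against 868 on the CPM scale. The 4 genes past 2-fold in heated anthers were 1 each of the HSP70, HSP90 and HSP100 lists, and MBF1c.

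MBF1c (Solyc01g104740), a transcriptional co-activator induced by heat in many plants, was at 246 CPM in A2AS and 92.7 CPM in WT heated anthers. In unheated anthers it was at 4.40 CPM in A2AS and 5.88 CPM in WT. The HSP90 gene Solyc03g007890, whose protein folds client proteins with ATP, was at 277 CPM in A2AS and 97.9 CPM in WT, against 38.9 and 40.4 CPM in unheated A2AS and WT anthers. In both genes the unheated genotypes were close and the heated A2AS library was the highest of the 4 anther libraries. The ClpB gene Solyc02g088610, a disaggregase of the HSP100 family, was at 131 CPM in A2AS and 59.6 CPM in WT, a ratio of 2.20 (2.03 to 2.39). Its unheated levels were 23.9 CPM in A2AS and 25.2 CPM in WT. The HSP70 gene Solyc11g020040 was at 36.4 CPM in A2AS and 14.9 CPM in WT, a ratio of 2.45 (2.08 to 2.89), with 2.24 and 2.74 CPM in unheated A2AS and WT anthers. These 4 genes differed 2-fold under every scaling and pseudocount tried.

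Members of the same lists spread over a range. Among the 10 HSP70 genes, cytosolic and organellar folding chaperones, 9 had a log2 ratio above 0, from −0.15 to 1.24 with a median of 0.41. Solyc10g086410 was at 165 CPM in A2AS and 90.0 CPM in WT, a ratio of 1.83 (1.71 to 1.96). Solyc01g106260 was the exception, at 54.5 CPM in A2AS and 60.5 CPM in WT. All 5 HSP90 genes were above 0, from 0.12 to 1.49 with a median of 0.50, and Solyc06g036290 was at 623 CPM in A2AS and 439 CPM in WT. The 3 HSP100 genes ran from 0.21 to 1.13, and HSP101, the cytosolic disaggregase needed for acquired heat tolerance in other plants, was at 669 CPM in A2AS and 540 CPM in WT.

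The 13 small heat shock proteins, which hold unfolding proteins in a refoldable state, were level as a group: 7 were above 0 and 6 below, and their summed level was 12656 CPM in A2AS and 12746 CPM in WT. Their median of 0.00 became −0.08 under median-ratio scaling. The widest ratios went opposite ways. Solyc05g014280 was at 112 CPM in A2AS and 57.4 CPM in WT, a ratio of 1.95 (1.79 to 2.13). Solyc02g093600 was at 38.4 CPM in A2AS and 63.6 CPM in WT, so that WT was 1.66-fold (1.49 to 1.85) higher. The abundant members differed less, and HSP21 (Solyc03g082420), of the chloroplast, was at 1393 CPM in A2AS and 1327 CPM in WT. The counting of reads that match several near-identical members is not described, so values in these families are uncertain. The 7 listed genes of protein folding in the endoplasmic reticulum had 0 members at 2-fold and a median of −0.01. The widest of them was the BiP gene Solyc03g082920, an HSP70 of that compartment, at 538 CPM in A2AS and 401 CPM in WT. The reference genes, used by others to normalise expression, had a median of 0.13 with 0 of 9 members at 2-fold.

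**Figure D2:**
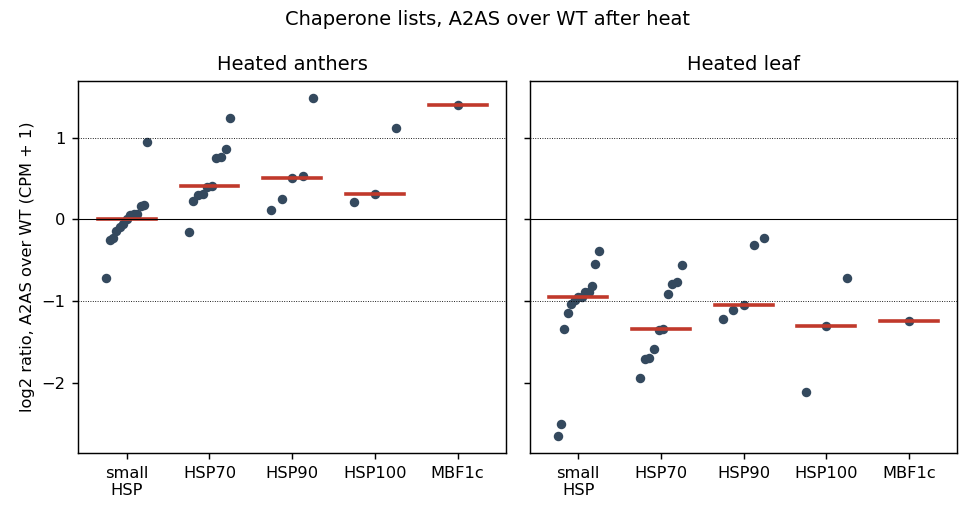
Log2 ratio of A2AS over WT (CPM + 1) for each listed chaperone gene and MBF1c in heated anthers (left) and heated leaf (right), 1 point per gene, with red bars at list medians and dotted lines at 2-fold. In heated anthers 25 of 32 points lie above 0 and in heated leaf 0 of 32 do (21 and 2 under median-ratio scaling).

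Genes that heat raises in leaf were followed into the heated anther pair. A list of 354 genes at least 2-fold higher in heated than in unheated WT leaf, defined from libraries outside the pair after values were seen, had 253 genes at the minimum. Of these 4 were 2-fold higher (1.58%) and 1 was 2-fold lower (0.395%), with a median log2 ratio of 0.17 against 0.08 over all genes. Over all genes the shares were 0.918% higher and 1.37% lower. Among genes that were not anther-restricted, as defined below, they were 0.280% and 0.583%. The list's shares rest on 4 and 1 genes, and their difference from these backgrounds was not tested. These genes included the ClpB and HSP70 genes above. The remaining 3 were Solyc06g008130 and Solyc03g117960, which were higher, and Solyc03g113420, which was lower. These 3 genes belong to none of the listed families or pathways and are given by ID only. Of the 568 genes that were 2-fold lower in heated A2AS leaf, 396 were at the minimum in heated anthers, where 7 were 2-fold higher (1.77%) and 2 were 2-fold lower (0.505%). The difference of these shares from the same backgrounds was not tested either.

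The 2-fold differences between the library labelled A2AS and WT lay mainly in genes restricted to the anther. Genes were called anther-restricted when they were at least 10-fold higher in unheated WT anther than in unheated WT leaf (CPM + 1), a definition that uses neither library of the pair and was set after values were seen. Of 677 such genes 562 were at the minimum, and 62 were 2-fold higher (11.0%) and 78 were 2-fold lower (13.9%) in A2AS. Of the 8914 remaining genes 25 were 2-fold higher (0.280%) and 52 were 2-fold lower (0.583%). Anther-restricted genes were 5.93% of the genes compared, 71.3% of those 2-fold higher and 60.0% of those 2-fold lower. Their log2 ratios ran from −1.28 to 2.05 between the 5th and 95th percentiles, against −0.36 to 0.39 for the remaining genes. Their median was −0.13, against 0.09 for the remaining genes, and they differed in both directions. Of the 31 genes at least 4-fold higher in A2AS, 29 were anther-restricted. With the restriction taken from the unheated A2AS libraries, 63 of 540 restricted genes were higher and 86 were lower.

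**Figure D3:**
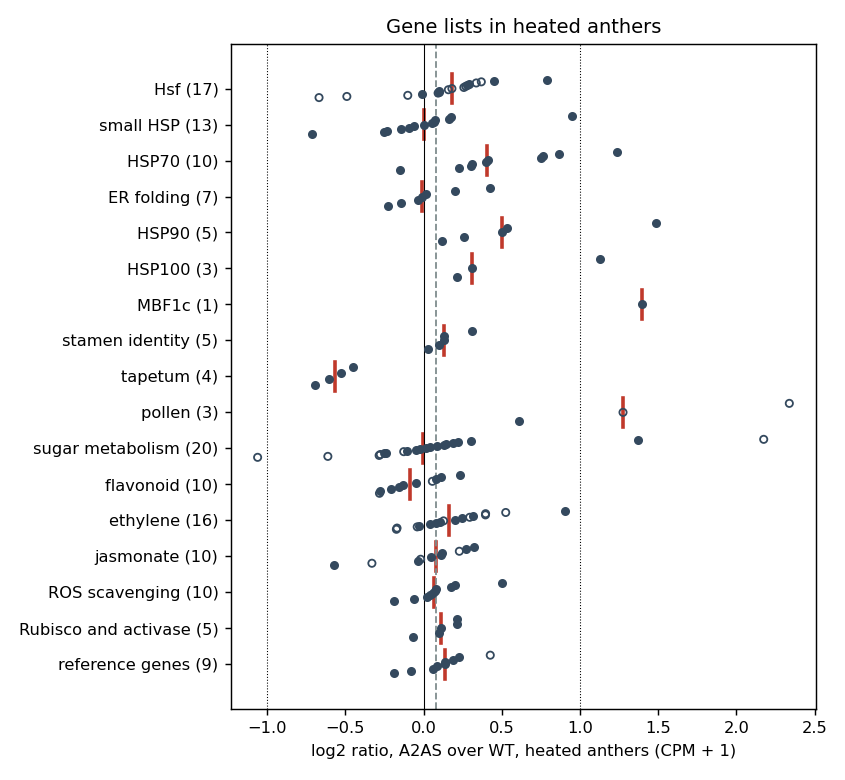
Log2 ratio of A2AS over WT (CPM + 1) in heated anthers for the members of 17 gene lists, with the number of members in brackets, filled points at the minimum of 10 CPM over the pair and open points below it. Red bars mark list medians, dotted lines 2-fold, and the dashed line the all-gene median of 0.08. All 4 tapetum genes lie below 0, and all 3 pollen genes and all 5 HSP90 genes lie above it.

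Markers of cell types inside the anther also differed between the libraries, pollen and tapetum markers in opposite directions. Fewer cells of a type and less RNA per cell cannot be told apart in these bulk samples. The 5 pollen markers, namely LAT52, LePRK1, LePRK2, LIN7 and FRK4, summed to 239 CPM in A2AS and 129 CPM in WT heated anthers, and all 5 were higher in A2AS. In unheated anthers they summed to 205 CPM in A2AS and 445 CPM in WT, and 0 of 5 were higher in A2AS. The heated WT library was the lowest of the 4 anther libraries for each of them. The 4 tapetum regulators summed to 297 CPM in A2AS and 445 CPM in WT heated anthers, and to 247 CPM in A2AS and 329 CPM in WT unheated anthers. They were lower in A2AS in both pairs. Neither list had a marker at 0 in the heated pair. The part of these markers' cells in the differences above was not tested, and the mix of anther stages in a library and the genotype cannot be told apart.

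Among the pollen markers the largest gaps were in receptors and sugar enzymes. LePRK2 (Solyc07g017230), a receptor kinase of the pollen tube, was at 11.8 CPM in A2AS and 1.53 CPM in WT heated anthers, a ratio of 7.71 (4.89 to 12.8). Its unheated levels were 11.0 CPM in A2AS and 28.2 CPM in WT. FRK4 (Solyc10g017620), a stamen fructokinase, was at 8.78 CPM in A2AS and 1.17 CPM in WT, a ratio of 7.53 (4.46 to 13.6), with 7.11 and 16.4 CPM in unheated A2AS and WT anthers. Both genes are under the minimum of 10 CPM over the heated pair and are not among the genes counted as different. LIN7 (Solyc09g010090), a cell wall invertase that supplies sugar to pollen, was at 53.4 CPM in A2AS and 20.0 CPM in WT heated anthers, a ratio of 2.66 (2.32 to 3.07). In unheated anthers LIN7 was at 48.9 CPM in A2AS and 99.5 CPM in WT. In these 3 genes the A2AS libraries were close to each other, and the WT libraries were the highest and the lowest of the 4. LePRK1 was low throughout, at 2.13 CPM in A2AS and 0.291 CPM in WT heated anthers. LAT52, an abundant pollen protein gene, was at 163 CPM in A2AS and 106 CPM in WT heated anthers.

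The tapetum regulators were nearer to each other. TDF1 (Solyc03g113530), a MYB factor of tapetum development, was at 86.6 CPM in A2AS and 141 CPM in WT heated anthers, so that WT was 1.63-fold (1.51 to 1.75) higher. AMS (Solyc08g062780), a bHLH factor that acts after it in Arabidopsis, was at 174 CPM in A2AS and 251 CPM in WT, and WT was 1.44-fold (1.37 to 1.52) higher. MS32 (Solyc01g081100), another bHLH factor, was at 18.6 CPM in A2AS and 25.7 CPM in WT, and WT was 1.38-fold (1.18 to 1.63) higher. All 4 regulators, MS10 included, were lower in the A2AS library by less than 2-fold, with a median log2 ratio of −0.56. The stamen identity genes, whose median was 0.13, lay nearer to WT: TAP3 was at 783 CPM in A2AS and 713 CPM in WT, and TPI at 542 and 531 CPM in the same order.

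**Figure D4:**
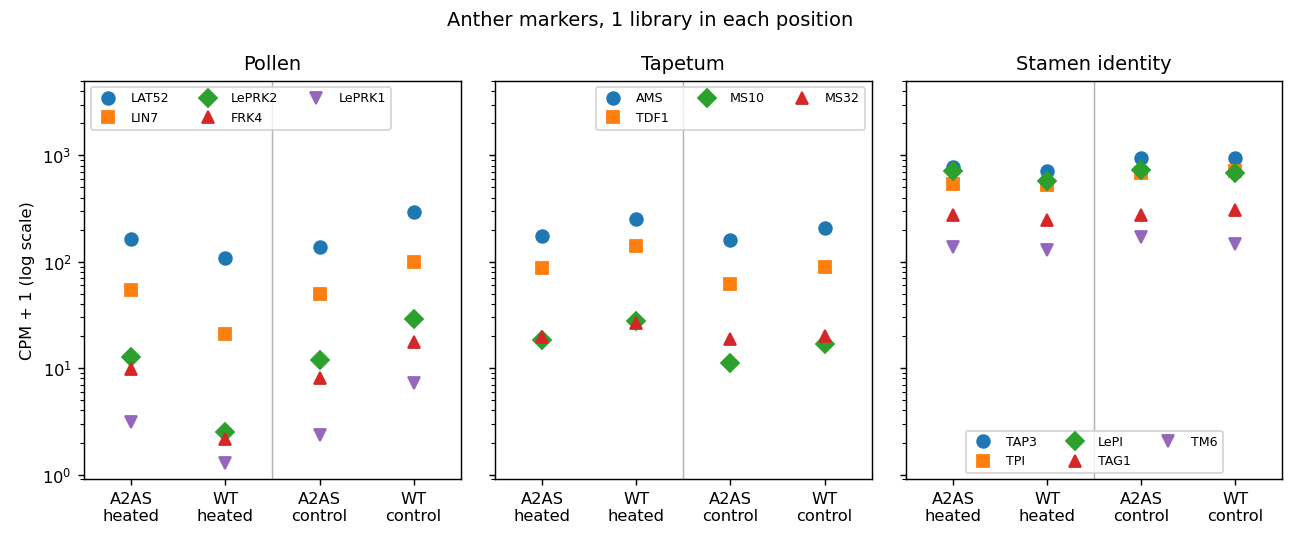
CPM + 1 (log scale) of 5 pollen, 4 tapetum and 5 stamen identity markers in the 4 anther libraries, with heated libraries left of the grey line and A2AS left of WT in each pair. Each pollen marker is lowest in heated WT and highest in unheated WT anthers, while stamen identity genes keep similar levels in all 4 libraries.

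The genes that differed 2-fold after heat were followed into the unheated anther pair, which shares no library with the heated pair. There 186 of 9213 genes differed 2-fold (2.02%), with 64 higher (0.695%) and 122 lower (1.32%). The 87 genes higher in heated A2AS anthers had a median of 37.5 CPM in A2AS and 10.9 CPM in WT after heat, against 28.0 CPM in A2AS and 46.6 CPM in WT without heat. Heated WT was the lowest of the 4 anther libraries for 69 of the 87 and heated A2AS the highest for 39, against 2538 and 3957 of all 9476 genes. The rule that chose these genes uses both heated libraries and so favours such ranks. The 29 of them that were 2-fold lower in unheated A2AS anthers were all anther-restricted. A high level in unheated WT anthers favours both that choice and that label, so this share is partly built in. Their summed levels were 1049 CPM in A2AS and 217 CPM in WT heated anthers. In unheated anthers these were 960 CPM in A2AS and 2245 CPM in WT. The 2 A2AS libraries were close in this group, and the WT libraries lay on either side of them. The choice of these 29 genes by both anther pairs favours that position of the WT libraries. As a share of each list, the 29 are 33.3% of the genes higher after heat and 23.8% of those lower without heat.

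The 130 genes lower in heated A2AS anthers had a median of 15.0 CPM in A2AS and 39.0 CPM in WT after heat, against 33.8 CPM in A2AS and 26.6 CPM in WT without heat. Heated A2AS was the lowest of the 4 anther libraries for 106 of them and heated WT the highest for 66, against 1330 and 1743 of all 9476 genes, ranks that the choice of these genes favours as well. The 38 that were 2-fold higher in unheated A2AS anthers, of which 18 were anther-restricted, had medians of 11.2 CPM in A2AS and 31.4 CPM in WT after heat, and of 32.9 CPM in A2AS and 13.2 CPM in WT without heat. They made up 29.2% of the genes lower after heat and 59.4% of those higher without heat. Another 76 did not differ 2-fold in unheated anthers, and 49 of these were anther-restricted. A further 4 genes were higher and 16 were lower in both pairs. Thus 20 genes had the same direction and 67 the opposite one with the heated anther labels as deposited. With these labels exchanged the counts would be 67 and 20. Exchanging the unheated anther labels instead would give the same counts, so these counts cannot tell such exchanges apart. No exchange was tested. Of the 4 genes higher in both pairs, Solyc05g045670 was at 114 CPM in A2AS and 14.6 CPM in WT heated anthers. Its unheated anther levels were 121 and 17.5 CPM in the same order. It was also higher in A2AS leaf, at 105 against 44.7 CPM with heat and 294 against 72.6 CPM without. Solyc01g081250 was higher and Solyc12g006530, under the minimum, lower in A2AS in all 4 genotype pairs. These genes were picked for wide ratios or small limma p-values, which can favour a shared direction.

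**Figure D5:**
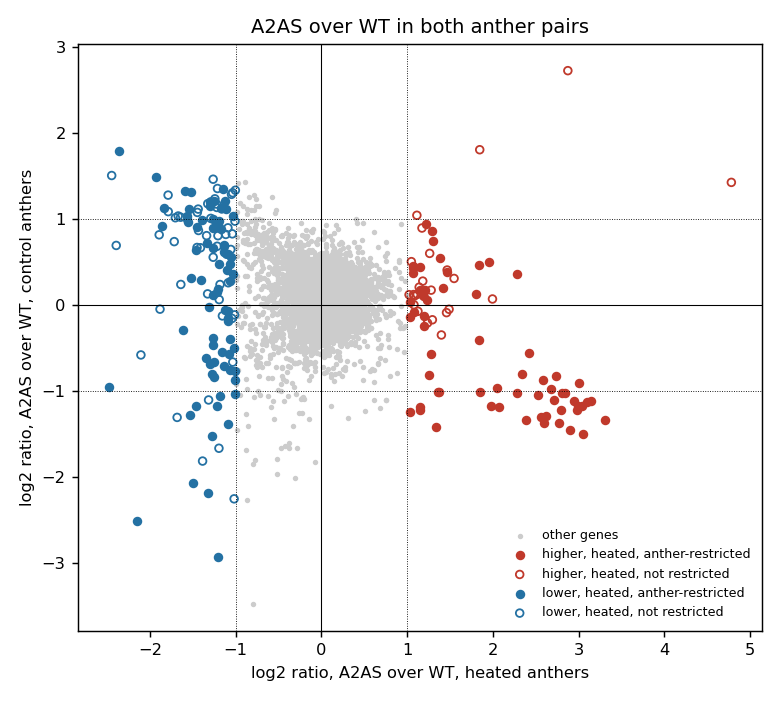
Log2 ratio of A2AS over WT (CPM + 1) in heated anthers (x axis) and in unheated anthers (y axis), 1 point per gene at the minimum of 10 CPM over the heated pair. Red and blue genes differ at least 2-fold after heat, filled points are anther-restricted, and dotted lines mark 2-fold. The 29 genes higher after heat and lower without it, at the lower right, are all filled. A high level in unheated WT anthers favours both that choice and the anther-restricted label.

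The widest ratios belonged to genes on none of the gene lists, which are given here by ID only. Solyc01g081250 was at 1306 CPM in A2AS and 46.5 CPM in WT heated anthers, and at 15.8 and 5.28 CPM in unheated A2AS and WT anthers. It was high in heated A2AS leaf as well, at 374 CPM against 6.28 CPM in WT. Solyc03g034280 was at 35.5 CPM in A2AS and 2.70 CPM in WT heated anthers, a ratio of 13.2 (9.43 to 18.9), and at 26.8 and 69.4 CPM in unheated A2AS and WT anthers. Its levels followed the order of the pollen markers. On the lower side, Solyc11g011300 was at 6.58 CPM in A2AS and 40.3 CPM in WT heated anthers, so that WT was 6.13-fold (4.93 to 7.70) higher, with 47.5 and 16.1 CPM in unheated A2AS and WT anthers. Solyc07g006660 was at 9.12 CPM in A2AS and 55.2 CPM in WT, so that WT was 6.05-fold (5.02 to 7.33) higher, with 118 and 231 CPM in unheated A2AS and WT anthers. This last gene was lower in A2AS in both anther pairs, without reaching 2-fold on the log2(CPM + 1) scale in the unheated one.

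Other pathways of anther heat biology were read against the 2.29% of all genes that differed 2-fold. Of 20 listed sugar genes 13 were at the minimum, and LIN7 was the 1 that differed 2-fold, with a list median of 0.00. Its neighbour in the family, LIN5, another cell wall invertase, was at 91.1 CPM in A2AS and 90.0 CPM in WT. Among 16 ethylene genes 8 were at the minimum and 0 differed 2-fold, with a median of 0.17. ACO1 (Solyc07g049530), which makes ethylene from its precursor, was at 34.3 CPM in A2AS and 17.8 CPM in WT, a ratio of 1.92 (1.65 to 2.25). The receptor gene ETR3 was at 61.7 CPM in A2AS and 49.4 CPM in WT. Among 10 jasmonate genes 7 were at the minimum and 0 differed 2-fold, with a median of 0.08. JAZ1 (Solyc07g042170), a repressor of jasmonate signalling, was at 312 CPM in A2AS and 464 CPM in WT, so that WT was 1.49-fold (1.43 to 1.55) higher.

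Genes of flavonoid synthesis, active in tapetum and pollen coat, had 8 of 10 members at the minimum, 0 at 2-fold and a median of −0.09. F3H, a hydroxylase of the pathway, was at 490 CPM in A2AS and 547 CPM in WT, and the PAL gene Solyc09g007920, at the entry to it, at 547 and 466 CPM in the same order. The 10 genes that scavenge reactive oxygen species had 0 at 2-fold and a median of 0.07, which became −0.01 under median-ratio scaling. FeSOD (Solyc06g048410), an iron superoxide dismutase, had the widest ratio of them, at 124 CPM in A2AS and 87.6 CPM in WT, or 1.42-fold (1.32 to 1.53). APX3, an ascorbate peroxidase, was at 818 CPM in A2AS and 774 CPM in WT heated anthers. The Rubisco list, small subunit genes and activase, had 0 of 5 at 2-fold and a median of 0.11. In heated leaf its median was 1.20 and 4 were 2-fold higher in A2AS. Most of its members mark green tissue, but the small subunit gene Solyc07g017950 was higher in anthers. It was at 20.7 CPM in A2AS and 21.7 CPM in WT heated anthers, against 0.16 and 0.577 CPM in A2AS and WT heated leaf. RBCS1, a small subunit gene, was at 517 CPM in A2AS and 446 CPM in WT heated anthers.

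The tests the design allows use all 8 libraries, so that their residual is how the A2AS difference varies across tissues and treatments and not a spread between replicate plants. Over the 4 genotype pairs limma called 0 of 15220 genes, with 1313 at an unadjusted p under 0.05 (8.63%). Smallest in each direction were the p-values of Solyc05g045670, at 2.20 ± 0.26 log2, and Solyc12g006530, at −1.28 ± 0.14 (SE; limma adjusted p = 0.216 for each). The difference between anther and leaf in the A2AS ratio was called by limma for 464 genes (3.05%), of which 306 were positive (2.01%) and 158 negative (1.04%). Positive means a higher A2AS ratio in anther than in leaf. Under median-ratio scaling the balance turned round, with 574 calls by limma, 112 positive and 462 negative. Of the 32 chaperone and MBF1c genes 8 were called, and all 8 were positive. They were 5 of 10 HSP70 genes, 2 of 13 small heat shock proteins and HSP101. Under median-ratio scaling limma called 6 of the 32, all positive, and the estimate was above 0 for all 32. Among HSP70 genes Solyc06g076020 differed by 2.80 ± 0.18 log2 (SE; limma adjusted p = 0.0144). HSP21 differed by 2.83 ± 0.24 (limma adjusted p = 0.0268) and HSP101 by 1.90 ± 0.27 (limma adjusted p = 0.0417). HsfA2 differed by 2.35 ± 0.48, which did not pass the threshold (limma adjusted p = 0.0564), and nor did MBF1c, at 2.83 ± 0.81 (limma adjusted p = 0.0870). ACO1 differed by 2.58 ± 0.18 (limma adjusted p = 0.0144) and RBCS1 by −1.54 ± 0.21 (limma adjusted p = 0.0416). Among negative differences the smallest p was that of Solyc06g061200, at −3.02 ± 0.18 (limma adjusted p = 0.0144). These calls rest on few libraries: limma made 0 without the unheated leaf pair, 0 without the heated leaf pair, 1138 without the unheated anther pair and 889 without the heated anther pair. It also made 0 without a variance trend and 0 with no expression minimum.

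Whether the A2AS difference changed with heat, over both tissues, was called by limma for 1 gene (0.00657%), with 184 at an unadjusted p under 0.05 (1.21%). The gene was Solyc01g081250, at 3.93 ± 0.40 log2, heated minus unheated (SE; limma adjusted p = 0.0391), and it was not called under median-ratio scaling, without a variance trend or with no expression minimum. Leaving out 1 pair gave 40 calls without unheated leaf, 200 without heated leaf, 4 without unheated anther and 61 without heated anther. HsfA2 differed by 0.24 ± 0.91 in this test (limma adjusted p = 1). No test contrasts the heated with the unheated pair within anthers, where each group has 1 library.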

How the data were processed

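Per the labels' protocols, total RNA was enriched by poly(A) binding and the last 500 bp were sequenced. The authors deposited 1 table of CPM values per library (tags per 1000000, no length term). Per the submitters' processing notes FastQC was used; no aligner, counting method, genome build or annotation is named in these notes, the labels or the tables. Library reads are 1000000 divided by the commonest value above 0, which was taken as 1 read. Of heated anther values 77.6% (A2AS) and 78.1% (WT) were whole reads within 0.001, so no count model was run. Ratios used a pseudocount of 1, a minimum of 10 CPM averaged over the pair and a 2-fold limit; exact (Clopper-Pearson) 95% intervals cover counting error only.

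limma 3.58.1 (R 4.3.3) was fitted to log2(CPM + 1) of genes averaging 2 CPM or more over the libraries, with tissue and treatment pair as block, a variance trend and Benjamini-Hochberg adjustment at 0.05. Members, lists and tests were chosen with earlier results of these data known. Genes named are HsfA2, other Hsf genes at the minimum, list members past 2-fold or with the widest ratios, at most 2 unlisted IDs per direction, and the smallest limma p. Exceptions chosen after values were seen are the pollen markers under the minimum, HSP101, HSP21, LIN5, TAP3, TPI, ETR3, APX3, RBCS1 and the 3 leaf heat genes. Solyc IDs matched 0 of 41476 reference rows. Of the listed IDs 1 was dropped after values were seen, leaving 148. The anther-restricted and leaf heat lists were added after values were seen. On simulated data the pair step recovered 176 of 176 genes changed 4-fold (9442 tested), and the limma steps 200 of 200 each. False calls in the limma steps were 9 (over the pairs), 4 (heated minus unheated) and 15 (anther minus leaf). Every simulated library had the same gene means, with counting noise and small added noise. The simulation thus lacked the variation across tissues and treatments in the real residual, and its recovery cannot be carried over to these data.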

Additional observations from a re-analysis of the deposited data

Results flagged for a closer look

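LIN7 had an A2AS over WT log2 ratio that was 2.38 higher in heated than in unheated anthers, with at least 2-fold differences in opposite directions. The same held for Solyc03g034280, by 4.65, and Solyc02g067450, by 4.55. Solyc02g067450 was at 55.8 CPM in A2AS and 5.83 CPM in WT heated anthers, and at 46.7 CPM in A2AS and 134 CPM in WT unheated anthers. The reverse pattern, lower after heat and higher without it, was held by Solyc11g011300, at −3.95, Solyc07g056300, at −4.16, and Solyc04g071000, at −2.55. Solyc07g056300 was at 26.5 CPM in A2AS and 141 CPM in WT heated anthers, and at 126 CPM in A2AS and 35.5 CPM in WT unheated anthers. These differences were not tested within anthers, where each group has 1 library. Solyc01g081250 had a higher A2AS ratio after heat over both tissues, by 3.93 log2 in limma.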

How the results depend on the processing

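No paired analysis was possible because the labels carry no replicate numbers to pair by; the limma block instead joins the genotypes within a tissue and treatment. In heated anthers the 217 differing genes became 509 (273 higher, 236 lower) with no minimum, 134 (50 and 84) at a minimum of 20 CPM and 37 (31 and 6) at 4-fold, and the lower genes became 86 with a pseudocount of 5. Unheated anthers gave 116 with that pseudocount, 364 with no minimum and 12 at 4-fold, and heated leaf 575, 1568 and 90. The percentage of anther-restricted genes that differed, 24.9, was 13.4 with the restriction at 3-fold, 35.8 at 30-fold and 20.1 with a pseudocount of 5. Limma calls for anther minus leaf were 168 with a pseudocount of 5, 853 at a minimum of 10 CPM, 574 under median-ratio scaling (112 positive and 462 negative, against 306 and 158), 0 with no minimum, 0 without a variance trend and 0 to 1138 leaving out 1 pair. Those for heated minus unheated were 0 with no minimum, 0 under median-ratio scaling, 0 without a trend and 4 to 200 leaving out 1 pair. Settings without a trend, and all those on anther-restricted genes, were chosen after seeing the data. Of 708 other values of single genes and lists, 611 stayed within counting error or 0.1 log2, 97 moved and 0 with at least 2-fold changed direction. The cause of these shifts was not tested. Plant-to-plant spread is unknown at any level.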
